A study of Homo sapiens with 8 samples.

Results

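The 10 genes described here are the 3 D-type cyclins (CCND1, CCND2, CCND3), their kinase partners CDK4 and CDK6, the 9p21 genes CDKN2A, CDKN2B and MTAP, and 2 further brakes on the cell cycle that lie outside 9p21, CDKN1B and RB1. They are 10 of the 18244 genes that carried at least 1 single-gene probe set on the array, and 34 of the 45278 single-gene probe sets belonged to them. For each gene the probe set with the highest mean over all 8 arrays was used, and the other probe sets of the gene were set beside it. The arrays hold 2 human lung adenocarcinoma cell lines: HCC827, which carries an activating EGFR mutation, and A549, which does not. Each line was grown in 3D (100000 cells seeded on collagen scaffolds, 14 days) or in 2D (200000 cells in a dish of 21 cm², 7 days). The treated cultures received 1 µM gefitinib, an inhibitor of the EGFR tyrosine kinase, and the controls received no inhibitor. The inhibitor was present for the last 3 days of 3D culture, from day 11, and from day 4 in 2D, if a protocol sentence that mentions 3D a second time is taken to mean 2D. Line, culture and treatment together give 8 groups of 1 array each. Where 4 values are listed for a line, they are those of 3D with gefitinib, 3D without it (control), 2D with gefitinib and 2D control.

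A D-type cyclin binds CDK4 or CDK6, and the active kinase phosphorylates RB1, the retinoblastoma protein, which then releases E2F transcription factors that drive the genes of DNA replication. The product of CDKN2A named p16INK4a and the product of CDKN2B, p15INK4b, bind CDK4 and CDK6 and keep cyclin D away from them. A second product of CDKN2A, ARF, is read in another frame from another first exon and restrains MDM2, the ubiquitin ligase of p53. CDKN1B encodes p27, an inhibitor of CDK2 complexes. MTAP, the neighbour of CDKN2A on the short arm of chromosome 9, encodes methylthioadenosine phosphorylase, the first enzyme of methionine salvage, and is often lost together with CDKN2A in lung cancer. CCND1 is a classical target of the growth factor, RAS and ERK pathway that lies downstream of EGFR. DNA copy number was not measured in these samples.

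The 9p21 trio is defined by position, so the sequence before each transcription start is shown first. The 4 stretches are the 250 bases before the RefSeq starts on GRCh38.p14, written 5′ to 3′ on the strand of the gene, with the GC boxes (GGGCGG or its reverse complement CCGCCC, both strands searched) in capitals. CDKN2A has 2 starts, and the probe sets are not assigned to either here.
MTAP, chr9:21802386-21802635, plus strand: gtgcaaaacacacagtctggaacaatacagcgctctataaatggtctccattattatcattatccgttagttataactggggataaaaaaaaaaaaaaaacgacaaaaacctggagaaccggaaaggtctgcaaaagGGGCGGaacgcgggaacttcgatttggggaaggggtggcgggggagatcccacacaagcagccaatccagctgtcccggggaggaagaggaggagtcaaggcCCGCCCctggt
CDKN2A, ARF start, chr9:21995325-21995574, minus strand: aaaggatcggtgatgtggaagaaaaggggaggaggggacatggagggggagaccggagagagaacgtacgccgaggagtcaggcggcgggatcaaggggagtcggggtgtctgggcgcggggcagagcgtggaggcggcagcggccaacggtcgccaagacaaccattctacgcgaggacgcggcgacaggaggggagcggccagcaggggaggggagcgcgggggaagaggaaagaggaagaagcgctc
CDKN2A, p16INK4a start, chr9:21974858-21975107, minus strand: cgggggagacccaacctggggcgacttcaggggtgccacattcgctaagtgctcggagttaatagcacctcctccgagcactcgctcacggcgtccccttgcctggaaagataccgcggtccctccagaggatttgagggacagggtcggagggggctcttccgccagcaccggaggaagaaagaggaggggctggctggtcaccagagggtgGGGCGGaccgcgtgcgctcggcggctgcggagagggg
CDKN2B, chr9:22009306-22009555, minus strand: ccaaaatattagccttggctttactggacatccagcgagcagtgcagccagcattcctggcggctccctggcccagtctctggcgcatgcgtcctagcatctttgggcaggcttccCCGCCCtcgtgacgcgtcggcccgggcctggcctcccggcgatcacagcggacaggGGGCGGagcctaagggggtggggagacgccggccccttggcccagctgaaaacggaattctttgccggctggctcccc
The 2 CDKN2A stretches and the CDKN2B stretch had GC contents of 66.8%, 66.8% and 66.4% and held 24, 20 and 18 CpG pairs, whereas the MTAP stretch had 50.0% and 11. The median over 35116 RefSeq promoter stretches of the same length was 58% GC and 11 CpG. GC boxes numbered 2 before MTAP, 0 before the ARF start, 1 before the p16INK4a start and 2 before CDKN2B, and 42.6% of all stretches held at least 1. Neither the E2F letters TTTNNCGC (5.92% of all stretches) nor the AP-1 letters TGANTCA (6.57%) occurred in any of the 4 windows.

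Values are log2 signals, so a difference of 1 is a doubling. The level that stands for background on an array is the 95th percentile over 340 olfactory receptor genes, which lung cells are not known to use, and it lay between 6.96 and 7.19 on the 8 arrays. Array medians lay between 7.27 and 7.34. Epithelial and line markers matched the names of the lines: of 9 such genes, 7 to 8 were above background on the HCC827 arrays and 8 on the A549 arrays, with NKX2-1 at background in A549 and ALDH1A1 at background in HCC827. Of 8 fibroblast markers 1 to 3 were above background in HCC827 and 0 to 1 in A549, of 7 measured immune markers 1 and 3, and of 6 endothelial markers 3 and 2. The fibroblast genes above background were COL1A1, LUM and PDGFRB, and neither COL1A2, COL3A1 nor the leukocyte gene PTPRC reached it on any array. The part of such cells in any difference below was not tested.

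One pair of arrays has to be described before the results. DUSP6, the phosphatase that is transcribed in proportion to ERK activity, stood at 8.16 and 11.48 on the HCC827 3D gefitinib and control arrays, but at 10.21 and 6.57 on the HCC827 2D gefitinib and control arrays. ETV5, another transcript that follows ERK, stood at 7.36 and 9.15 in HCC827 3D and at 9.47 and 6.95 in HCC827 2D, where the control array was at background for both genes. The gefitinib array was thus the lower one in 3D and the higher one in 2D, so that the HCC827 2D pair goes against its labels by these genes. The labels were kept, and values of that pair are called "as labelled". The line comparison, then of 3D alone, and the A549 culture comparison are also given without the pair. The HCC827 culture comparison cannot be made without it: its mean difference does not depend on which array of the pair is the treated one, but its residual does. Since every condition has 1 array, the mean ± SD of a line is taken over its 4 different conditions, and a p-value measures a difference against the fit's residual and not against replicate cultures.

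Between the lines, CDKN2A, CDKN2B, CDK4 and CDK6 were higher in HCC827, and CCND3 and RB1 were lower. CCND1, encoding cyclin D1, had signals of 9.03, 10.80, 11.87 and 9.36 in HCC827, against 11.22, 10.99, 10.98 and 11.16 in A549. With this probe set A549 held a level within 0.23 of itself in every condition while HCC827 ranged over 2.85, on both sides of A549. Over the 4 CCND1 probe sets A549 was less steady. There, 3D minus 2D ran from -0.96 to 0.70 between the gefitinib arrays and from -0.93 to 0.86 between the controls. The means were 10.27 ± 1.32 in HCC827 and 11.09 ± 0.12 in A549 (SD, n = 4 each), a difference of -0.82 ± 0.73 (SE, adjusted p = 0.408, limma). All 4 CCND1 probe sets had their HCC827 mean below their A549 mean, with differences of -0.82 to -0.35.

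CCND2, encoding cyclin D2, had signals of 6.65, 6.47, 6.43 and 6.48 in HCC827, against 6.42, 6.57, 6.46 and 6.56 in A549. None of its 3 probe sets was above background on any array, and it is the 1 gene of the 10 that was set aside from the tests. CCND3, encoding cyclin D3, had signals of 8.59, 9.11, 9.37 and 8.93 in HCC827, against 10.64, 10.45, 10.98 and 11.10 in A549. The lines did not overlap, and the difference was -1.79 ± 0.19 (adjusted p = 0.00333). A second CCND3 probe set stood at background on all 8 arrays and showed no such difference (0.03). With the probe sets used, cyclins D1 and D3 were thus both above background on all 4 arrays of each line.

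CDK4, the first of the 2 kinases, had signals of 13.43, 13.81, 13.81 and 13.93 in HCC827, against 10.57, 10.46, 11.14 and 10.97 in A549. The lines did not overlap, and the difference of 2.96 ± 0.09 (adjusted p = 0.000286) was found at 2.96 to 3.14 with all 4 probe sets of the gene. CDK6, the other kinase, had signals of 9.01, 9.63, 10.39 and 11.16 in HCC827, against 8.70, 8.40, 9.72 and 9.35 in A549. Its lines overlapped, because CDK6 also varied with the culture, but HCC827 was above A549 within each of the 4 matched conditions, and the difference was 1.01 ± 0.09 (adjusted p = 0.00205). All 4 CDK6 probe sets were higher in HCC827, by 0.49 to 1.01.

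**Figure D1:**
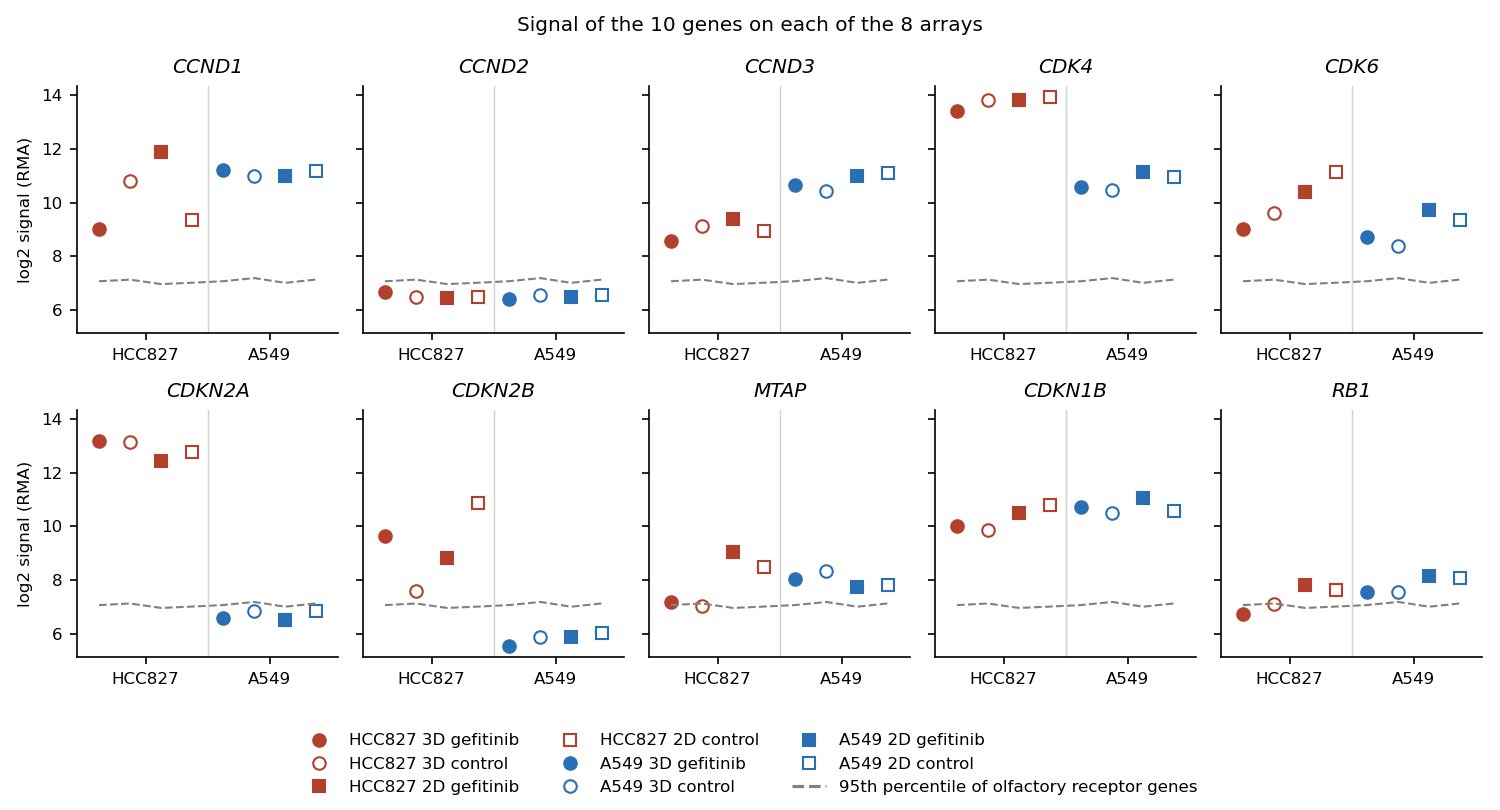
Log2 signal of each of the 10 genes on the 8 arrays, HCC827 on the left (red) and A549 on the right (blue) of each panel, with filled points for gefitinib and open points for control, circles for 3D and squares for 2D. The dashed line is the background level of each array: CDKN2A and CDKN2B lie below it on all 4 A549 arrays, CCND2 on all 8, and CDK4 lies between 13.43 and 13.93 in HCC827.

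CDKN2A and CDKN2B were at background in A549 and above it in HCC827. CDKN2A had signals of 13.17, 13.14, 12.45 and 12.79 in HCC827, against 6.58, 6.85, 6.52 and 6.85 in A549, at least 55.2-fold higher in HCC827 (adjusted p = 0.000145). Where a group is at background on all its arrays, the fold is such a lower bound, taken against the higher of its own signal and the background level of each array. No A549 array reached its background level, where the median of the olfactory receptor genes was 6.36 to 6.45. CDKN2B had signals of 9.63, 7.59, 8.81 and 10.89 in HCC827, against 5.55, 5.87, 5.87 and 6.03 in A549, at least 4.38-fold higher in HCC827 (adjusted p = 0.0190). Again no A549 array was above background, while all 4 HCC827 arrays were, over a range of 3.30. Being above background on all 4 HCC827 arrays and on none of A549 held for 325 of all 18244 genes, or 1.78%. Both genes passed the filter on low signal only through their HCC827 arrays, and for such genes the filter itself favours a difference between the lines.

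The remaining probe sets of both genes were also higher in HCC827. Of the 3 CDKN2A probe sets, 2 were above background on no A549 array, and the third exceeded it on 3 of 4, with signals of 6.99 to 7.62. In a fit of all 45278 probe sets that last one differed by 2.59 ± 0.12 (adjusted p = 0.000211), and the other further CDKN2A probe set was at least 4.72-fold higher in HCC827 (adjusted p = 0.000281). None of the 3 CDKN2B probe sets was above background on any A549 array, and the 2 further ones were at least 3.51-fold (adjusted p = 0.0123) and 1.23-fold (adjusted p = 0.0137) higher in HCC827.

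MTAP gave 2 answers, depending on the probe set. The one with the highest mean had signals of 7.18, 7.03, 9.05 and 8.47 in HCC827, against 8.05, 8.35, 7.73 and 7.84 in A549, and did not separate the lines (-0.06 ± 0.11, adjusted p = 0.671). It was above background on all 4 A549 arrays. Of the 5 others, 4 stood between 8.10 and 9.60 in HCC827, above background on every array, and between 5.59 and 6.59 in A549, at background on every array. They were at least 3.19-fold, 3.43-fold, 3.14-fold and 2.96-fold higher in HCC827 (adjusted p between 0.000942 and 0.00300). The sixth was above background everywhere and lower in HCC827 by a little (-0.30 ± 0.08, adjusted p = 0.0450). A probe set annotated to both CDKN2B-AS1, an antisense RNA, and MTAP averaged 7.08 ± 0.13 in HCC827 and 6.94 ± 0.12 in A549, above background on 2 HCC827 arrays and on none of A549. The array annotation does not tell which MTAP transcripts or other sequences the 2 dissenting probe sets take up, and the cause of the disagreement was not tested.

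**Figure D2:**
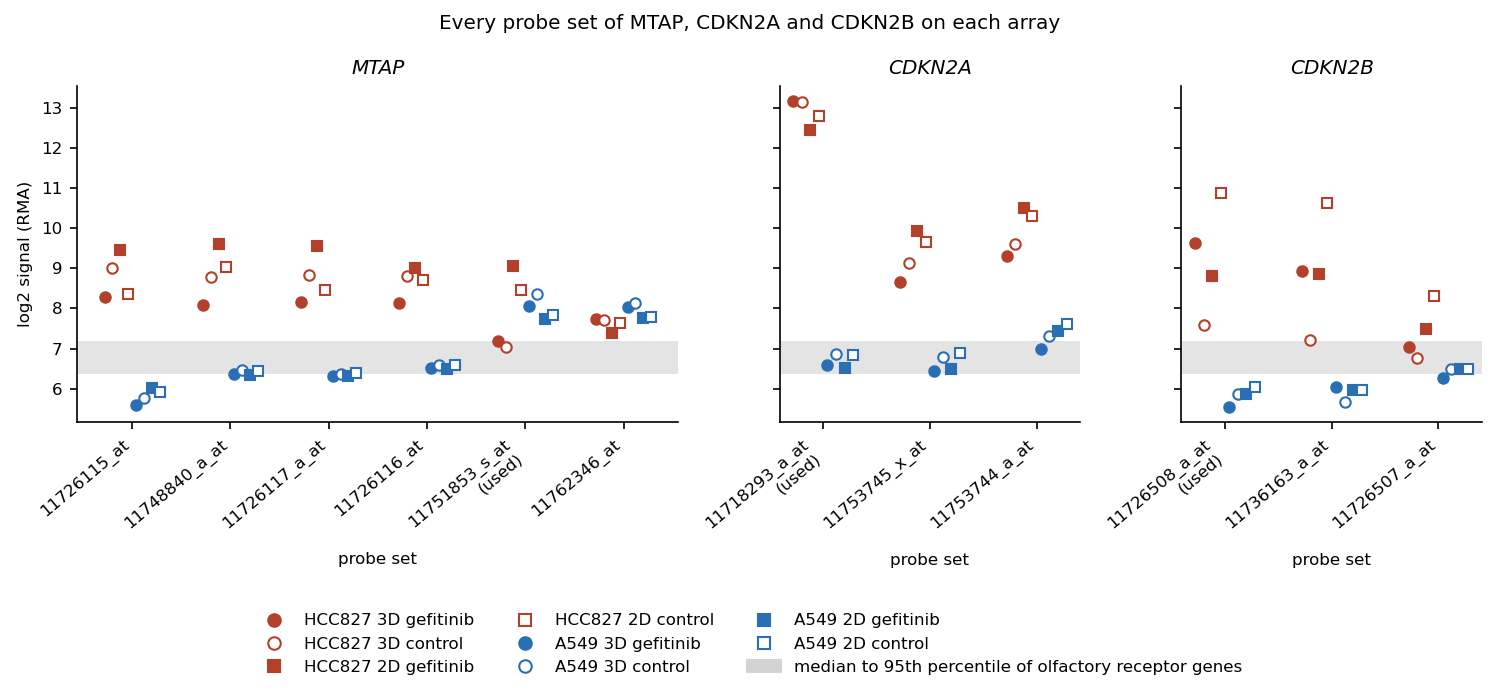
Log2 signal of every single-gene probe set of MTAP, CDKN2A and CDKN2B on each array, HCC827 in red left of A549 in blue within a probe set, with the span from the median to the 95th percentile of the olfactory receptor genes shaded. For 4 MTAP probe sets all A549 points lie in or below the shaded span and all HCC827 points above it, while the probe set used by the highest-mean rule and 1 more overlap or lie close together.

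The genes on either side showed where along 9p21 the A549 signal was at background. In RefSeq order MLLT3, FOCAD and KLHL9 precede MTAP, and TUSC1, CAAP1, PLAA and IFT74 follow CDKN2B at a distance. All 7 were above background on all 4 A549 arrays, with A549 means between 8.43 and 9.31, so that genes on both flanks of the trio gave signal in A549. MOB3B, the last gene of the stretch, was above background on all 4 HCC827 arrays, at 8.38 to 9.15, and on 2 of 4 A549 arrays, at 6.91 to 7.19. The other neighbours gave less: the interferon genes IFNB1, IFNW1, IFNA21 and IFNA2, the antisense RNA CDKN2B-AS1, and TEK further out, were above background on no array, and HACD4 and DMRTA1 were above it on 2 HCC827 arrays each and on no A549 array. IFNE, an epithelial interferon, was above background on 2 arrays of each line. ELAVL2, a neuronal RNA-binding protein, was the one other gene of the 18 neighbours measured that was above background on all 4 HCC827 arrays and on none of A549, at 7.34, 7.75, 8.07 and 7.33 in HCC827, against 6.15, 5.84, 6.05 and 6.18 in A549.

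Of the 18 neighbours 10 were tested. Of these 2 passed as higher in HCC827 and 3 as lower, beside 22.0% and 26.1% of all tested genes. MOB3B (1.57 ± 0.10, adjusted p = 0.00106) and ELAVL2 (at least 1.43-fold, adjusted p = 0.00635) were higher in HCC827, and both passed the filter on low signal only through their HCC827 arrays, so that the filter favoured these differences too. IFT74, a part of the cilium transport machinery (-0.61 ± 0.10), IFNE (-0.43 ± 0.09) and KLHL9, a ubiquitin ligase adaptor (-0.28 ± 0.08), were lower in HCC827. IFNE passed the filter only through its A549 3D arrays, so that the filter favoured its difference as well. The median of the 10 neighbours was -0.07, beside -0.03 over all tested genes.

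**Figure D3:**
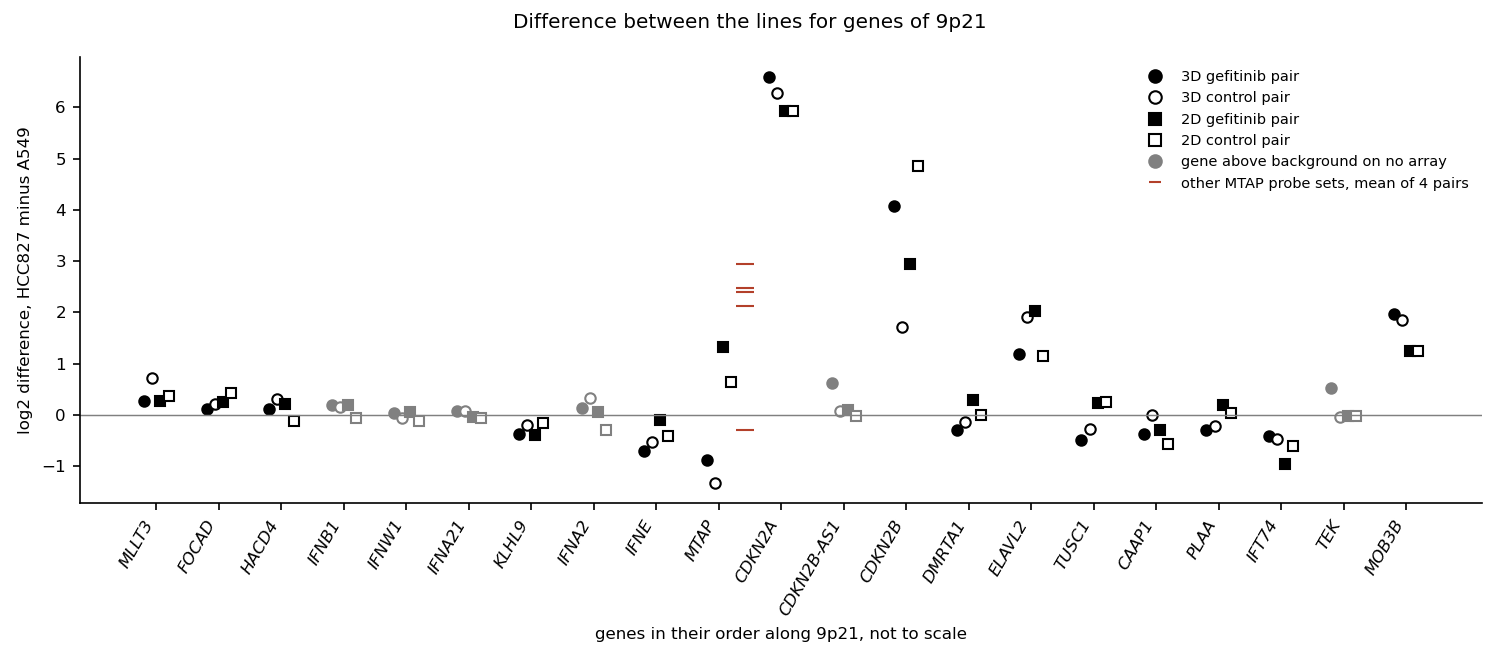
HCC827 minus A549 (log2) for the trio and its 18 measured neighbours in gene order along 9p21, not to scale, with a point for each matched pair of arrays and dashes for the mean differences of the other MTAP probe sets. Every CDKN2A point lies above those of the flanking genes, whereas the CDKN2B point of the 3D control pair (1.72) lies below those of ELAVL2 (1.91) and MOB3B (1.85), and 4 of the MTAP dashes lie between 2.12 and 2.95. Signals at background enter as measured.

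The last 2 brakes differed less. CDKN1B had signals of 9.999, 9.85, 10.50 and 10.81 in HCC827, against 10.71, 10.50, 11.06 and 10.57 in A549. The lines overlapped and the difference of -0.42 ± 0.12 did not pass (adjusted p = 0.0506). RB1 had signals of 6.74, 7.10, 7.82 and 7.63 in HCC827, against 7.56, 7.57, 8.17 and 8.06 in A549, a difference of -0.52 ± 0.11 (adjusted p = 0.0230). It was above background on 2 of 4 HCC827 arrays, those of 2D, and on all 4 A549 arrays, and the dimmest of its 3 probe sets was above background on none of the 8.

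Taking the genes as a list, 6 of the 9 tested passed the test between the lines, 4 higher in HCC827 (CDK4, CDK6, CDKN2A, CDKN2B) and 2 lower (CCND3, RB1). Over all 11926 tested genes 48.1% passed, 22.0% higher and 26.1% lower, so the share among these genes was not far from the share of all. Without CDKN2A and CDKN2B, 4 of 7 passed. For 4 of the 9 the lines did not overlap, beside 32.6% of all tested genes. The 4 were CCND3, CDK4, CDKN2A and CDKN2B, and for CDKN2A and CDKN2B the filter favoured this. Among the 7 others only CCND3 and CDK4 did not overlap. Leaving out 1 A549 array ended the calls of CDKN2B (adjusted p up to 0.0917) and RB1 (up to 0.147), whichever array it was. Without both HCC827 2D arrays the comparison was of the lines in 3D alone, with the spread from A549 alone. All 9 then passed, beside 69% of all tested genes. These 3D differences were 3.10 for CDK4, 0.77 for CDK6, -1.69 for CCND3, -0.65 for RB1, -0.68 for CDKN1B, -1.19 for CCND1 and -1.10 for MTAP. CDKN2A and CDKN2B were higher as before. The RB1 value is as measured, with both HCC827 3D arrays at background.

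The rest of the pathway differed between the lines gene by gene. The counts that follow stand beside 48.1% of all tested genes that passed, 22.0% higher and 26.1% lower in HCC827. Of 4 further CDK inhibitors only CDKN1A, encoding p21, passed, at 9.20 ± 0.66 in HCC827 and 10.20 ± 0.44 in A549 (adjusted p = 0.00412). Of 21 RB-E2F target genes 1 passed, CCNE1 (cyclin E1, -0.62 ± 0.15, adjusted p = 0.0287), with a list median of 0.08. Among 15 regulators of cyclin D1 transcription 5 were higher in HCC827 and 2 lower, led by ETS1 (3.49 ± 0.23), JUN (2.88 ± 0.12), EGR1 (2.23 ± 0.65) and ETV4 (-1.73 ± 0.46). Among 13 genes of methionine salvage and PRMT5, the arginine methyltransferase that the MTAP substrate inhibits, 3 were higher in HCC827 and 3 lower. APIP, the enzyme of the salvage pathway that follows MRI1 (at background in HCC827, at least 4.55-fold lower), ADI1 (-0.99 ± 0.09) and MAT2A (-0.63 ± 0.10) were lower, while PRMT5 was higher (0.59 ± 0.14, adjusted p = 0.0295). APIP passed the filter on low signal only through its A549 arrays, so that the filter favoured its difference. Among 12 tested genes that control the turnover of cyclin D and p27, CRYAB (-1.47 ± 0.10), COPS5 (0.98 ± 0.09), SKP1 (-0.67 ± 0.09) and FBXO4 (-0.47 ± 0.11) led 2 that were higher and 3 that were lower.

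3D and 2D cultures differed in growth time, seeding and RNA preparation at once, and these cannot be told apart. RNA integrity also moved with culture. The actin control signal was 2.10 ± 0.47 higher at the 3′ than at the 5′ end in 3D, against -0.10 ± 0.04 in 2D (SD, n = 4 each), a difference of 2.19 with the smallest p that 70 splits allow (exact permutation test, two-sided, p = 0.0286). The GAPDH control gave a 3′ excess of 0.91 ± 0.48 in 3D, against -0.02 ± 0.02 in 2D (n = 4 each, exact permutation test, p = 0.0286). Within 3D the excess was larger in HCC827 (actin 2.64 and 2.34, GAPDH 1.57 and 0.97, gefitinib and control) than in A549 (actin 1.74 and 1.67, GAPDH 0.54 and 0.55). Its part in the differences that follow was not tested. Nor can fewer cells of a kind and less RNA per cell be told apart in such bulk samples.

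CDK6 was lower in 3D in both lines. In HCC827 it stood at 9.01 and 9.63 in 3D and at 10.39 and 11.16 in 2D, and in A549 at 8.70 and 8.40 in 3D and at 9.72 and 9.35 in 2D. The differences were -1.45 ± 0.12 in HCC827 (adjusted p = 0.0106) and -0.98 ± 0.12 in A549 (adjusted p = 0.0198), and the cultures did not overlap in either line. Of the 3 further CDK6 probe sets, 2 were lower in 3D in HCC827 too (-0.85 ± 0.17, adjusted p = 0.0217, and -0.81 ± 0.21, adjusted p = 0.0437), but the dimmest was higher (0.42 ± 0.11, adjusted p = 0.0440). In A549 none of the 3 passed (-0.51, -0.50 and 0.11), and with the mean of all 4 probe sets the A549 call was lost (-0.47, adjusted p = 0.0757).

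In HCC827 4 of the 9 genes passed, all lower in 3D: CDK6, MTAP, RB1 and CDKN1B. Over all tested genes 33.4% passed, and 13.7% of all passed as lower. MTAP stood at 7.18 and 7.03 in 3D and at 9.05 and 8.47 in 2D (-1.66 ± 0.15, adjusted p = 0.0108), but none of its 5 other probe sets passed (-0.88 to 0.21). RB1 stood at 6.74 and 7.10 in 3D and at 7.82 and 7.63 in 2D, at least 1.54-fold lower (adjusted p = 0.0275), since both 3D arrays were at background. CDKN1B stood at 9.999 and 9.85 in 3D and at 10.50 and 10.81 in 2D (-0.73 ± 0.18, adjusted p = 0.0406), and its second probe set was lower in 3D as well, at -1.16 between the gefitinib arrays and -1.27 between the controls.

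CDKN2A in HCC827 showed how far a probe set can decide a culture difference. The probe set used was higher in 3D (13.17 and 13.14 in 3D, 12.45 and 12.79 in 2D, a difference of 0.53 ± 0.15, adjusted p = 0.0536), and both others were lower (-0.94 ± 0.17, adjusted p = 0.0160, and -0.89 ± 0.20, adjusted p = 0.0272). CDK4 was similar: -0.25 ± 0.13 with the probe set used, and from -0.86 to 0.42 over its 4 probe sets. No culture direction can be given for CDKN2A or CDK4 in HCC827 from these values.

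In A549 CDK6 was the 1 of 9 that passed, beside 22.3% of all tested genes, and 6.01% in the lower direction. RB1 (-0.55 ± 0.16, adjusted p = 0.0783), CDK4 (-0.54 ± 0.13, adjusted p = 0.0554) and CCND3 (-0.50 ± 0.27, adjusted p = 0.245) had lower values in 3D and did not pass. With the probe set used CCND1 differed by 0.03 ± 1.04, an interval of -2.76 to 2.82, and its 4 probe sets went both ways. The interval is wide because the fit takes its spread from the change of the gefitinib difference. That change was large for CCND1 in HCC827. The difference of the culture effect between the lines passed for 0 of the 9 genes and for 0 of all 11926 in limma, of which 1696 had an unadjusted p under 0.05. MTAP came nearest (-2.08 ± 0.21, adjusted p = 0.131).

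The cultures of HCC827 did not overlap for 67.2% of all tested genes and those of A549 for 79.7%, as 2 arrays against 2 often do not. Both culture counts rest on the A549 arrays. Leaving out any 1 A549 array left the spread to HCC827 alone, and no gene passed in either line. Without both HCC827 2D arrays the A549 comparison passed for 6 of the 9 genes (CCND3, CDK4, CDK6, CDKN2B, MTAP and RB1), beside 64.1% of all tested genes, 5 lower in 3D and MTAP higher, CDKN2B from signals that are all below background.

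**Figure D4:**
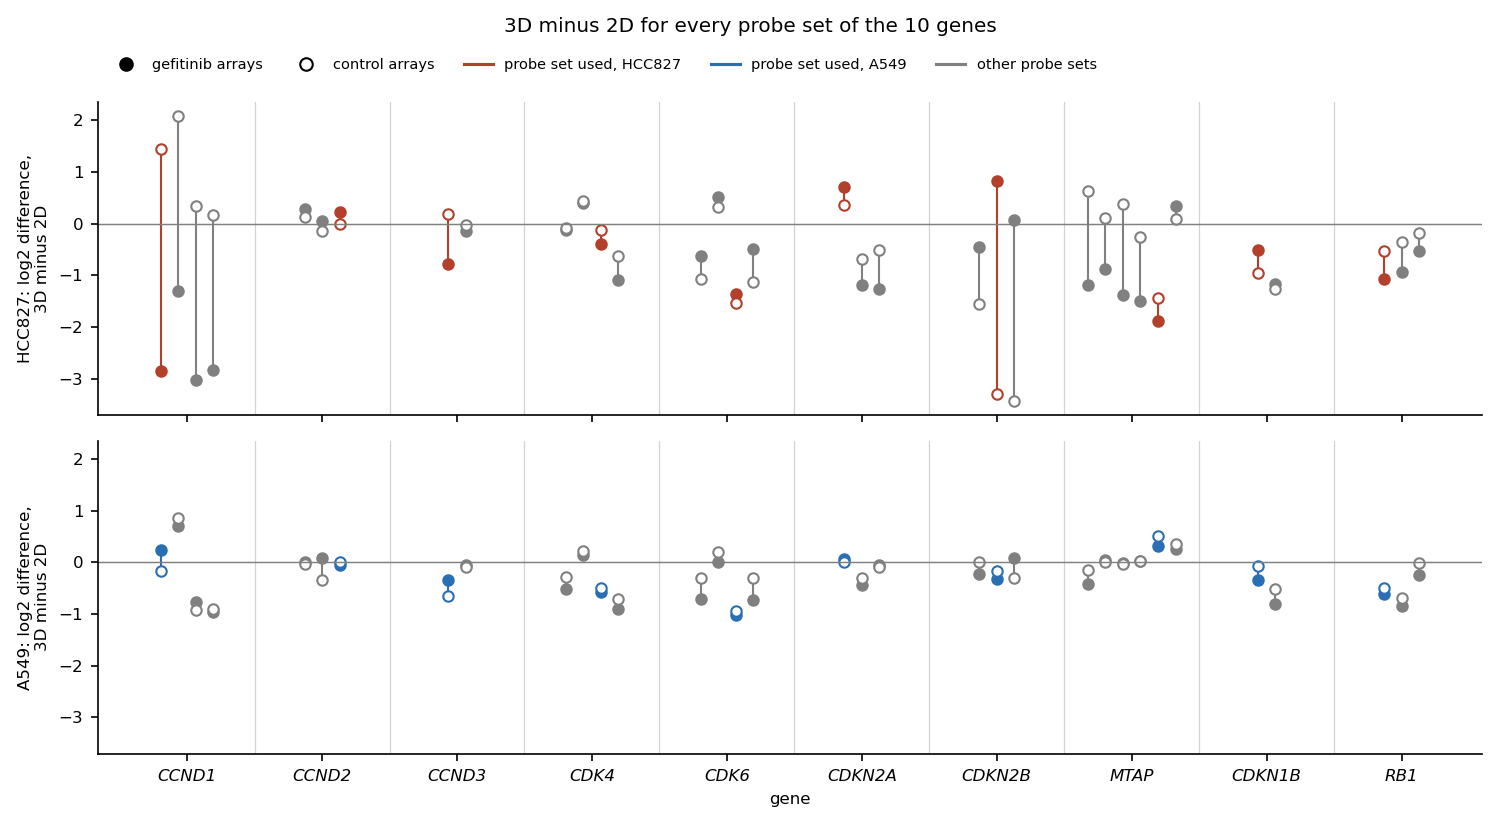
3D minus 2D (log2) for every probe set of the 10 genes, HCC827 above and A549 below on 1 scale, with filled points for the gefitinib arrays, open points for the controls, colour for the probe set used and grey for the others. CCND1 and CDKN2B in HCC827 have their gefitinib and control points far apart (-2.85 and 1.44 for CCND1, 0.82 and -3.30 for CDKN2B), and the CDK6 points of the probe set used lie between -1.53 and -0.95 in the 2 lines.

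Several further genes of the pathway were lower in 3D in both lines, but not all. MYC fell by 1.02 in HCC827 and by 0.55 in A549, CDKN1A by 1.03 and 0.75, COPS5, a subunit of the COP9 signalosome that promotes the export of p27, by 1.48 and 1.32, and SKP1, a core subunit of the SCF ubiquitin ligases, by 1.73 and 0.85, all past the test. Of the 12 tested turnover genes, COPS5 and SKP1 among them, 3 passed as lower and 1 as higher in each line. Their medians were 0.12 in HCC827 and 0.09 in A549. RNF123 was the turnover gene that passed as higher, by 0.74 in HCC827 and by 0.57 in A549. Of all tested genes 13.7% passed as lower in HCC827 and 6.01% in A549. The kinase-activating pair CCNH and MNAT1 was lower in both lines as well: CCNH fell by 0.86 in HCC827 and by 0.73 in A549, and MNAT1 by 0.59 and 0.57. None of the 21 RB-E2F targets passed in either line, with medians of -0.51 in HCC827 and -0.65 in A549, beside 0.08 and 0.13 over all genes. Of the salvage genes 5 were lower in HCC827, led by SMS (-1.31 ± 0.17) and WDR77 (-1.04 ± 0.15), and in A549 4 were lower and MAT2A was higher (0.84 ± 0.14).

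In A549 gefitinib changed none of the genes past the test: 0 of 9 passed, and 0 of 11926 over all genes (0%), of which 86 had an unadjusted p under 0.05. CDK6 was the one of the 9 among those 86. Its gefitinib arrays were above their controls in both cultures, at 8.70 against 8.40 in 3D and 9.72 against 9.35 in 2D (0.34 ± 0.12, unadjusted p = 0.0490). CCND1 differed by 0.23 in 3D and by -0.18 in 2D, and its interval of -2.77 to 2.82 does not exclude sizeable changes. CDKN2B, at background in A549, had an interval of -2.91 to 2.42. The spread of this fit also takes in how far the HCC827 gefitinib difference changed between cultures. Where that change was large, the test could call little in A549. Averaged over both HCC827 cultures as labelled, 0 of 9 and 0 of all genes passed for gefitinib, and 487 of all had an unadjusted p under 0.05. CDK6 was the one of the 9 among those 487, lower in both pairs (-0.69 ± 0.12, limma, unadjusted p = 0.00393, adjusted p = 0.926). For CCND1 and CDKN2B the opposite pairs largely cancelled in that average. Such opposite pairs also widen the spread of this fit.

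HCC827 in 3D, where DUSP6 was lower on the gefitinib array, was therefore taken by itself, as 1 array against 1, with the spread borrowed from A549 and HCC827 assumed to vary alike. On simulated data this fit called more unchanged genes than its threshold allows, so its calls are described by size first. The 3′ excess also differed within this pair, at 2.64 on the gefitinib array against 2.34 on the control array for actin and 1.57 against 0.97 for GAPDH, and its part was not tested. CCND1 stood at 9.03 on the gefitinib array, against 10.80 on the control array (-1.78 ± 0.15, adjusted p = 3.3e-05), and all 4 CCND1 probe sets were lower (-1.78 to -0.95). CDKN2B stood at 9.63 against 7.59 (2.04 ± 0.13, adjusted p = 7.6e-06), higher with all 3 probe sets. The cyclin was thus lower and the inhibitor higher on the same array.

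CDK6 stood at 9.01 on the 3D gefitinib array, against 9.63 on the control (-0.61 ± 0.12, adjusted p = 0.00428), and CCND3 at 8.59 against 9.11 (-0.53 ± 0.14, adjusted p = 0.0181). Both calls depend on the processing: averaging the 4 probe sets of CDK6 left -0.23 (adjusted p = 0.186), and CCND3 at -0.28 after cyclic loess (adjusted p = 0.172). CDK4 (-0.38 ± 0.13, adjusted p = 0.0520) and RB1 (-0.37 ± 0.12, adjusted p = 0.0530) did not pass. CDKN2A (0.02 ± 0.12), CDKN1B (0.15 ± 0.13) and MTAP (0.15 ± 0.13) differed by less and did not pass. The 4 other MTAP probe sets that separated the lines were lower on the gefitinib array (-0.73 to -0.66). Of the 9 genes 4 passed in all, beside 27.1% of all tested genes.

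In HCC827 2D as labelled CCND1, CDKN2B and CCND3 differed the other way. CCND1 stood at 11.87 on the gefitinib array, against 9.36 on the control array (2.51 ± 0.15, adjusted p = 7.0e-06). CDKN2B stood at 8.81 against 10.89 (-2.08 ± 0.13, adjusted p = 7.0e-06). CCND3 (0.44 ± 0.14, adjusted p = 0.0431) and MTAP (0.58 ± 0.13, adjusted p = 0.00941) were higher on the gefitinib array, CCND3 not when its 2 probe sets were averaged (0.20, adjusted p = 0.193), and 5 of 9 passed, beside 22.4% of all tested genes. The difference between the 3D and the 2D pair passed for CCND1 (-4.29 ± 0.21), CDKN2B (4.12 ± 0.18), CCND3 (-0.97 ± 0.19) and RB1 (-0.55 ± 0.18), 4 of 9, beside 32.6% of all tested genes. For RB1 both arrays of the 3D pair were at background.

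CDK6 was lower on the gefitinib array in both HCC827 pairs, at 9.01 against 9.63 in 3D and at 10.39 against 11.16 in 2D (-0.77 ± 0.12, adjusted p = 0.00117). Over its 4 probe sets 7 of the 8 pair differences were negative. Only 123 of the tested genes, 1.03%, passed as lower in both pairs, whereas 1140, or 9.56%, passed with opposite signs, CCND1, CCND3 and CDKN2B among them. The difference between the CDK6 pairs was 0.16 ± 0.17, with an interval of -0.21 to 0.53.

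**Figure D5:**
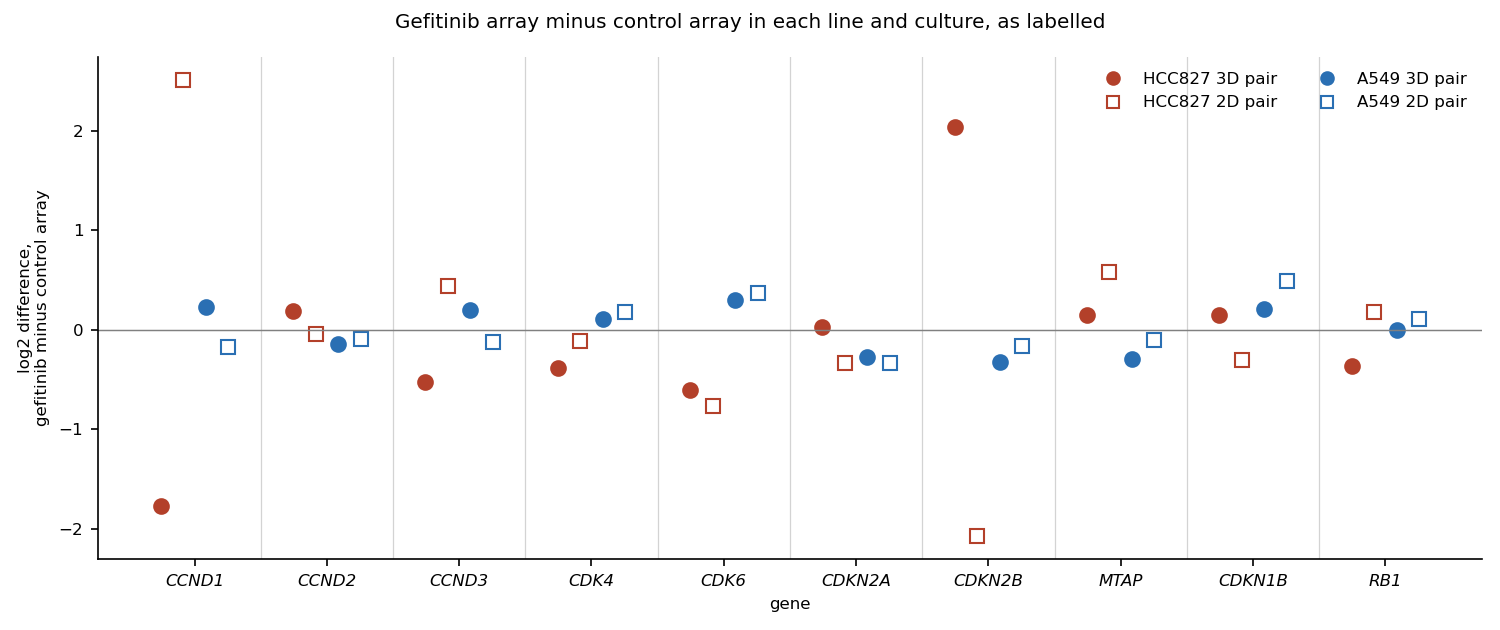
Gefitinib array minus control array (log2) for each of the 10 genes in HCC827 3D, HCC827 2D, A549 3D and A549 2D, as labelled, each point 1 array against 1. CCND1 (-1.78 and 2.51) and CDKN2B (2.04 and -2.08) lie on opposite sides of 0 in the 2 HCC827 pairs, CDK6 lies below 0 in both (-0.61 and -0.77), and the A549 points of all 10 genes lie between -0.33 and 0.49.

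Much of the wider pathway was lower on the HCC827 3D gefitinib array as well. All 21 tested RB-E2F target genes passed as lower on the gefitinib array, with a median of -1.26 beside -0.11 over all genes, and 20.4% of all tested genes passed as lower. RRM2, a subunit of ribonucleotide reductase, stood at 8.16 against 11.37 (-3.21 ± 0.12), and CDC6 (-2.32 ± 0.14), MCM4 (-2.15 ± 0.13), both of the replication licensing machinery, and TYMS, thymidylate synthase (-2.15 ± 0.12), followed. In 2D as labelled 19 of the 21 passed as higher, with a median of 1.39 beside -0.05 over all genes, and 9.96% of all tested genes passed as higher.

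Upstream, 11 of 15 regulators of cyclin D1 transcription passed as lower on the 3D gefitinib array and none as higher, led by EGR1 (-2.27 ± 0.16), ETV5 (-1.79 ± 0.17), FOS (-1.68 ± 0.13) and ETV4 (-1.57 ± 0.24). In 2D as labelled 5 passed as higher and 3 as lower, FOSL2 among the lower ones (-1.76 ± 0.12). Over all tested genes 20.4% passed as lower in the 3D pair. In the 2D pair as labelled 22.4% of all passed in either direction, and 9.96% as higher. Of the E and A cyclins and their kinases 5 of 8 were lower with gefitinib in 3D, with CCNE2 at 7.02, a background signal, against 8.36 and CCNA2 at -1.13 ± 0.13. E2F1 (-1.29 ± 0.12), E2F8 (at background with gefitinib, at least 1.80-fold lower), E2F2 (-0.93 ± 0.12) and TFDP1 (-0.68 ± 0.12) were lower with gefitinib in 3D among 11 tested RB, E2F and DP genes, and 3 of these passed as higher in 2D as labelled.

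The other CDK inhibitors did not move as one. CDKN1C, encoding p57, stood at 10.29 on the HCC827 3D gefitinib array, against 8.44 on the control (1.84 ± 0.12, adjusted p = 9.9e-06), as CDKN2B did, and at 8.01 against 10.15 in 2D as labelled (-2.14 ± 0.12). CDKN1A was lower on the 3D gefitinib array (-0.67 ± 0.13, adjusted p = 0.00363), and CDKN3, a phosphatase that acts on CDKs and is itself a gene of dividing cells, was lower as well (-1.19 ± 0.18). CKS1B, the SKP2 cofactor for p27 degradation, was the 1 of 12 turnover genes that passed for gefitinib in 3D (-1.16 ± 0.12), beside 27.1% of all tested genes.

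The genes most like each member over the 8 arrays were found by the Pearson correlation of their log2 signals, given as a description, since all 8 arrays are shared and 2 cell lines alone can set it. CCND1 was most like SPRED2 (r = 0.972), an inhibitor of the RAS to ERK pathway, followed by MMAB and MBD4. CDKN2B was most like ST6GALNAC5 (0.991), PIK3R3 and GDAP2, and CDKN2A like ZSCAN18 (0.998), SFTA2 and ZFP69. CDK4 was most like DDAH1 (0.997), HDAC2 and WLS, and CCND3 like SLC20A1 (0.993), PPIL3 and ARL3. For CDK6 they were SRD5A1 (0.987), UBE2E2 and TM2D1, for CDKN1B SPAST (0.984), ATP6V1H and MAP1LC3B, and for RB1 TEX2 (0.996), LAGE3 and EIF4E2. MTAP had the weakest best match, ATR (0.950), followed by MID2 and NECAP1.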

How the data were processed

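RNA of 8 cultures was measured on 1 oligonucleotide expression array each. The authors deposited a log2 signal for each of 49495 probe sets, made by robust multi-array averaging (RMA, R 3.2.1) per the submitters' processing notes. The genome build they used is not stated in the sources at hand. Of the probe sets, 102 were controls, 45278 had 1 gene symbol in the array annotation and were used, 1333 had several and 2878 were not listed. RefSeq (GRCh38.p14) matched 45208 of the 45278 and 70 not, and gave symbols, gene order and promoters (8 of the 10 genes matched). Each of 18244 genes was represented by its probe set with the highest mean, and the 11926 above the array median on at least 2 arrays were tested.

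Tests used limma 3.58.1 in R 4.3.3 with a variance trend, two-sided, with Benjamini-Hochberg adjustment over the 11926 genes in each of 9 contrasts and a threshold of 0.05. For line, culture and gefitinib within a line, 6 coefficients (mean, line, and culture and treatment within each line) left a residual with 2 degrees of freedom, to which the prior added 2.36, so the spread comes from how far a line's gefitinib effect differed between 3D and 2D. The 2 HCC827 gefitinib pairs used 7 coefficients, with 1 residual degree of freedom, all from A549, plus 9.06 from the prior. Standard errors and intervals (95%) are those of the fits. The scripts were tested on simulated data. The number of arrays limits the precision. The genes and lists were chosen with earlier results of these data known. Named beside the 10 genes are all measured 9p21 neighbours, DUSP6 and ETV5 as context, up to 4 genes a list past the threshold with the largest change (more where both lines or cultures are compared), and the 3 most alike genes of each member. Alternatives were the mean and the largest-variance probe set of a gene, no filter, cyclic loess, a robust prior, 7 coefficients throughout, no HCC827 2D arrays, other background probe sets, leaving out each array and, added after seeing the data, the matched conditions as a block of the line comparison.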

Additional observations from a re-analysis of the deposited data

Results flagged for a closer look

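On simulated data the fit with its spread from A549 alone called more unchanged genes than its threshold allows. By that fit (limma, 1 array against 1), the gefitinib minus control difference in HCC827 passed a test of its change between cultures, 3D minus 2D, for 4 of the genes. It was -4.29 for CCND1 (adjusted p = 7.3e-07), 4.12 for CDKN2B (adjusted p = 4.1e-07), -0.97 for CCND3 (adjusted p = 0.00377) and -0.55 for RB1 (adjusted p = 0.0369), and 32.6% of all tested genes passed the same test. For RB1 both HCC827 3D arrays were at background, and its 3 probe sets ran from -0.37 to 0.07 in the 3D pair. The second CCND3 probe set, at background, differed by -0.15 in the 3D pair and by -0.05 in the 2D pair. DUSP6 (-3.32 in 3D, at least 9.19-fold higher in 2D) and ETV5 (-1.79 in 3D, at least 5.48-fold higher in 2D) had opposite differences in the same 2 pairs. Whether the labels of the HCC827 2D pair are exchanged or the cultures respond differently cannot be told apart with 1 array per condition.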

How the results depend on the processing

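The labels give no replicate numbers to pair. With the 4 matched conditions as a block (5 coefficients, 3 residual degrees of freedom), an alternative chosen after seeing the data, 5383 genes and 6 of the 9 passed between the lines. With 7 coefficients, 8945 genes passed between the lines in place of 5736, 8290 in place of 3986 for culture in HCC827, 7644 in place of 2665 in A549, 3931 in place of 0 for the difference of the culture effects and 1381 in place of 0 for gefitinib in HCC827. Of the 9 genes 9, 6, 6 and 2 then passed in these last 4 comparisons, in place of 4, 1, 0 and 0. For culture in A549 the largest-variance probe set gave 4669 genes (3 of the 9), the mean of a gene's probe sets 0 of the 9, cyclic loess 2, and leaving out both HCC827 2D arrays 7649 genes (6 of the 9). MTAP turned with the probe set: between the lines it was 1.60 with the mean of its probe sets and 2.95 with the largest-variance one, and in HCC827 3D gefitinib -0.43 and -0.73. CDKN2A in HCC827 culture turned to -0.43 with the mean. The 95th percentile of 23 nonspecific control probe sets was a higher level, between 9.16 and 9.59. Against it, the MTAP probe set used was above background on 0 A549 arrays in place of 4, and on 0 HCC827 arrays in place of 3. The flanking genes MLLT3, KLHL9, CAAP1 and IFT74 were above that level on 0 arrays of either line, so it does not set MTAP or A549 apart. RB1 between the lines (adjusted p = 0.0784) and CDK6 culture in A549 (adjusted p = 0.0757) no longer passed with the mean of probe sets, and MTAP culture in HCC827 was lost under 2 of 6 alternatives and CDKN1B under 1 of 6.

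Leaving out 1 array gave 1838 to 8584 genes between the lines (4 to 8 of the 9), 0 to 7719 for culture in HCC827 (0 to 9 of the 9), 0 to 7648 in A549 (0 to 6), 0 to 4536 for their difference (0 to 6) and 0 to 3242 for gefitinib in HCC827 (0 to 5); the low ends came without an A549 array. CCND1 ranged from -1.89 to 0.25 between the lines, -2.85 to 1.44 for HCC827 culture, -2.88 to 1.41 for the difference of culture effects and -1.78 to 2.51 for HCC827 gefitinib. CDKN2B ranged from -3.30 to 0.82 and -3.06 to 1.06 in the 2 culture results and -2.08 to 2.04 for HCC827 gefitinib, where CCND3 ranged from -0.53 to 0.44. The HCC827 pairs could not be refitted without an A549 array, which leaves no residual degree of freedom. CDK4, CDK6 and CCND3 between the lines passed under every alternative run, and CDKN2B and RB1 passed in 4 of 8 fits that left out 1 array. CDKN2A also passed in all, but it entered the tests only through the line where it is high. Cultures, RNA preparation and 3′ excess move together, and 1 array per condition leaves no replicate error.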
